A study of Mus musculus with 9 samples.

Results

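BV2 is an immortalised line of wildtype mouse microglia, made by oncogene transformation. RNA sequencing was done on 9 BV2 libraries in 3 groups: untreated cells (Control), cells given lipopolysaccharide (LPS), and cells given LPS with an agent that the labels abbreviate as Pilo (LPS+Pilo). The results below set the 3 LPS+Pilo libraries against the 3 LPS libraries, which asks what Pilo added to the LPS state, and the 3 Control libraries give the unstimulated level. No group analysed here received Pilo alone, so an action of Pilo on resting cells cannot be told apart from an action on the LPS response. The sources used here state neither doses nor lengths of exposure. The libraries are labelled as biological replicates, but whether they came from separate cultures is not stated, and the p-values therefore measure only the spread between these libraries. Of 55906 genes in the table, 11260 were measured at 1 TPM (the length-corrected share of a library's transcripts, on a fixed total) or more in at least 3 of the 9 libraries, and these were compared.

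Microglia are the resident macrophages of the brain. LPS, a component of the outer membrane of Gram-negative bacteria, binds CD14 and TLR4 and switches on NF-kB, MAP kinase and interferon regulatory factor signalling. The cells then secrete chemokines, cytokines and acute-phase proteins, make nitric oxide and itaconate, and turn down much of the gene programme of resting microglia. The gene groups below are ordered by these roles.

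Each library had between 10726 and 11123 genes at 1 TPM or more. The myeloid identity of the cells was clear for some markers and weak for others. Cd68 lay between 976 and 1219 TPM, Tyrobp between 657 and 1296 TPM and Spi1 between 236 and 279 TPM in the 9 libraries. Aif1, a common microglial stain, was at most 1.36 TPM, and Cx3cr1 at most 4.57 TPM. Markers of astrocytes, endothelium, fibroblasts and lymphocytes were at or near 0, except Cd3d at 3.1 TPM in 1 Control library, and of the neuronal markers Rbfox3, Snap25, Syt1, Nefl, Slc17a7 and Stmn2 were at 0 in every library, while Tubb3 was at 164 to 457 TPM and Syn1 at 4.98 to 13.66 TPM. Of the oligodendrocyte markers Cnp and Mbp were measured, at 23.79 to 30.85 and 3.94 to 6.57 TPM, and Mog, Olig1 and Olig2 were at 0. One library stood apart. The third LPS library held the lowest value of the 6 treated libraries in 41.4% of genes, whereas the first and second LPS libraries held the highest value in 27.1% and 32.4% of genes. Counts without the third LPS library are given beside the groups described or gathered after the last of them.

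**Figure D1:**
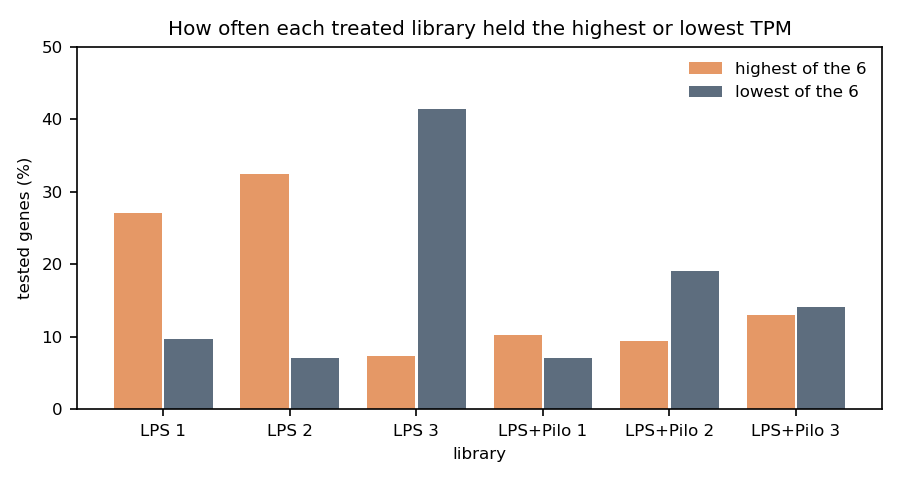
Share of the 11260 tested genes (y axis, percent) for which each of the 6 treated libraries (x axis) held the highest TPM (orange) or the lowest TPM (grey). The third LPS library is the lowest in 41.4% of genes and the highest in 7.38%.

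Few genes differed by much between LPS+Pilo and LPS. The difference of LPS+Pilo minus LPS was taken on the scale of log2(TPM + 1), which understates the change of low genes. Its median over all tested genes was -0.05, the percentiles 5 and 95 were -0.37 and 0.31, and 49 genes were higher and 50 lower by 1 or more. Past limma's moderated test with Benjamini-Hochberg adjustment at 0.05 were 5 genes (0.0444% of those tested). In LPS+Pilo 1 of them was higher (0.00888%) and 4 were lower (0.0355%). Of the 4 lower, ENSMUSG00000119895 reached 1 TPM with LPS only. It was therefore tested only because it was high there, and its call is no support for a difference. At an unadjusted p under 0.05 there were 761 genes (6.76%). For scale, 874 genes (7.76%) passed in LPS against Control and 1143 (10.2%) in LPS+Pilo against Control, comparisons that share the Control libraries. The next gene after the 5 had an adjusted p of 0.114. The median standard error of a difference was 0.17, and the median half-width of its 95% interval was 0.38, so that for a typical gene a smaller difference could not be told from 0 even before adjustment. Values after ± below are standard errors of the log2 difference.

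A second, looser description counted genes whose 3 LPS+Pilo libraries all lay on the same side of all 3 LPS libraries. There were 1374 of them (12.2%), with 628 higher (5.58%) and 746 lower (6.63%). Of these, 107 were higher and 124 lower by 0.5 log2 units or more. After the 9 libraries were scaled to a common median ratio, 6.38% were higher and 8.05% lower. Without the third LPS library the count was 4909 of 11212 genes (43.8%), with 983 higher (8.77%) and 3926 lower (35.0%), and the median difference over all genes was then -0.13. With that scaling and without that library, 2026 were higher (18.1%) and 2322 lower (20.7%). Below, "apart" means that the replicates of both groups do not overlap, and the counts of each functional group are to be read against these shares. Except for the 5 genes named next, no gene described here passed the adjusted test.

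Igf1, a growth factor that microglia secrete and that supports neurons and myelinating cells, fell the furthest of the 3 annotated protein genes past the test. It was at 23.28, 33.21 and 30.63 TPM in the LPS libraries and at 11.81, 7.99 and 9.57 TPM in the LPS+Pilo libraries, a log2 difference of -1.48 ± 0.16 (SE, adjusted p = 0.0216 by limma). The Control libraries held 42.21 to 48.43 TPM, so the 3 groups did not overlap, with Control highest and LPS+Pilo lowest. Hspb7, a small heat shock protein best known from heart muscle, followed the same order. It was at 79.73, 80.83 and 95.70 TPM with LPS and at 47.87, 44.14 and 48.99 TPM with LPS+Pilo, against 188.98 to 224.20 TPM in Control, and fell by 0.84 ± 0.10 (SE) on the log2 scale (adjusted p = 0.0342 by limma). Plau, the urokinase plasminogen activator that starts pericellular proteolysis, was at 72.88, 78.00 and 77.67 TPM with LPS and at 51.24, 46.07 and 46.50 TPM with LPS+Pilo. It fell by 0.66 ± 0.09 (adjusted p = 0.0481 by limma), from a Control level of 103.74 to 118.49 TPM. In these 3 genes LPS+Pilo lay further from Control than LPS did.

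The other calls were loci without an established name. The assembled transcript MSTRG.18989, which has no annotation in the table, was at 0.28, 0.35 and 0.59 TPM with LPS, at 3.17, 2.90 and 3.18 TPM with LPS+Pilo and at 0.98, 1.00 and 1.65 TPM in Control, and it rose by 1.54 ± 0.17 (adjusted p = 0.0216 by limma). ENSMUSG00000119895 was listed at 7.61, 9.56 and 27.28 TPM in the LPS libraries and at 0 in all Control and all LPS+Pilo libraries. No fold is given for it, since a listed 0 can be a failed estimate. The gene met the filter only through its high LPS values, so its call is no support. The calls depended on the libraries used. None of the 5 passed without any one of the 3 LPS+Pilo libraries, and Igf1, Hspb7, Plau and MSTRG.18989 did not pass without the third LPS library, settings in which limma put 476 to 1243 genes at an unadjusted p under 0.05. ENSMUSG00000119895 was not tested when any LPS library was left out, since too few libraries then reached 1 TPM. Of the 5, Igf1 alone passed without the first LPS library, and without the second LPS library the single gene past the test was Gm24044. The differences themselves moved less: without the third LPS library Igf1 was at -1.43, Hspb7 at -0.76, Plau at -0.64 and MSTRG.18989 at 1.63.

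**Figure D2:**
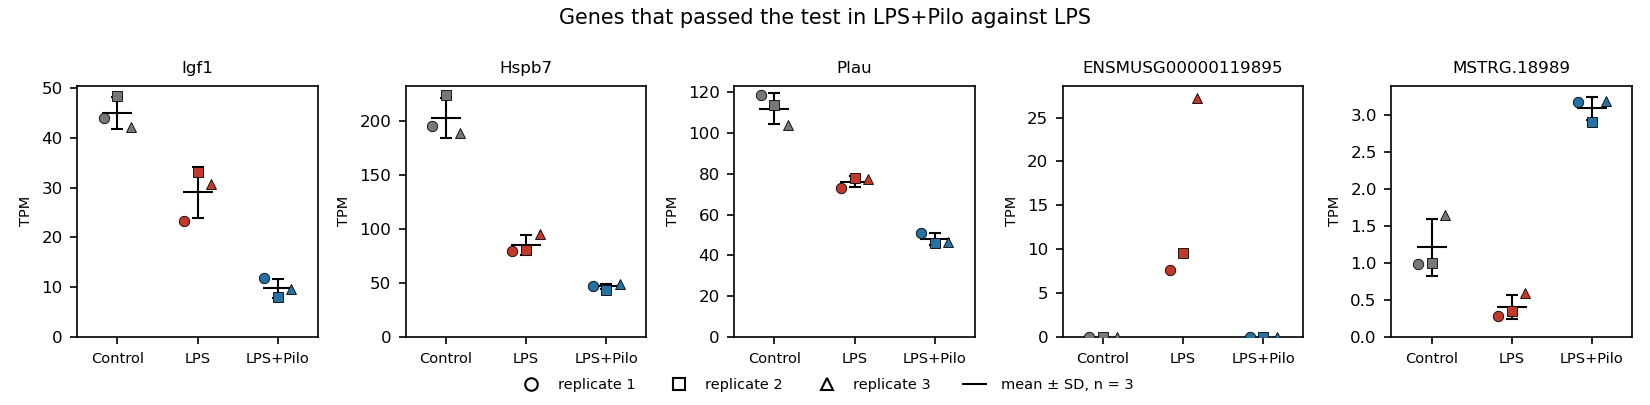
TPM (y axis, linear from 0) of the 5 genes past the adjusted test in each of the 9 libraries, by group (x axis), with points for replicates and black bars for the mean and SD of 3 libraries (none drawn for ENSMUSG00000119895, which is listed at 0 in 6 libraries). Igf1, Hspb7 and Plau step down from Control to LPS to LPS+Pilo, and MSTRG.18989 is highest in LPS+Pilo.

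The start-site sequences of the named genes that fell are shown for reference, as 250 bases before to 50 bases after the annotated start (RefSeq, GRCm38.p6). The reference build differs from the GRCm39 build named in the submitters' processing notes, so the coordinates hold for GRCm38.p6 only. Capitals mark an AP-1 site, searched as TGANTCA on both strands, which 7.81% of 32851 mouse promoters of this length hold. The Igf1 window (chr10:87860861-87861160 (+ strand)) has 1 match, with its first base at -37 from the start, and the Hspb7 window (chr4:141420529-141420828 (+ strand)) has no match to AP-1 or to the other motifs searched here (a CRE half-site and an NF-kB site). The motifs were chosen after the expression values were seen, and a match describes letters in the window, not binding.
Igf1: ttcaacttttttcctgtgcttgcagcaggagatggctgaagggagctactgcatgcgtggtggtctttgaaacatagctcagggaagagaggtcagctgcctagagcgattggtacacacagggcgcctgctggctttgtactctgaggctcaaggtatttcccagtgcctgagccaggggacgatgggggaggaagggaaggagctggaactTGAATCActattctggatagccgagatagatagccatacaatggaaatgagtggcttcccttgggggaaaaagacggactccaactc
Hspb7: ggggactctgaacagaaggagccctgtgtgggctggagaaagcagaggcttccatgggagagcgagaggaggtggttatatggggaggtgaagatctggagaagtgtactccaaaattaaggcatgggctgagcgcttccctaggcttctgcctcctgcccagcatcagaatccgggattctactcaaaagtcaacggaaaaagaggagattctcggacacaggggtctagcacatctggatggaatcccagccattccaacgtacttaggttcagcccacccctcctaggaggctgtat

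Among the secreted ligands, Ccl2, Ccl7 and Ccl12 were lower in LPS+Pilo, though none passed the adjusted test. Of 9 CC and CX3C chemokine ligands tested, 4 were apart and lower and 1 apart and higher, with a median difference of -0.03 (0.01 after median ratio scaling). Ccl2, the main monocyte attractant, was at 989.11, 925.94 and 768.36 TPM with LPS and at 618.34, 495.51 and 558.78 TPM with LPS+Pilo (log2 difference -0.68 ± 0.12, adjusted p = 0.212 by limma). Ccl7 was at 149.78, 151.00 and 146.71 TPM against 96.06, 67.19 and 91.62 TPM (-0.82 ± 0.14), and Ccl12, a mouse ligand of the same receptor CCR2, at 21.35, 16.77 and 24.12 TPM against 11.78, 9.01 and 9.21 TPM (-0.98 ± 0.28). In each of these 3 genes every LPS+Pilo library was below every LPS library and above every Control library. The fourth lower ligand was Ccl6, at -0.31. Ccl25, a lymphocyte attractant, was higher, at 7.40, 8.15 and 8.86 TPM against 5.67, 5.81 and 5.67 TPM. Ccl3, the ligand with the highest TPM of those named here, did not separate: 5203, 4051 and 4568 TPM with LPS and 4553, 4237 and 4656 TPM with LPS+Pilo, a difference of -0.03 with a 95% interval of -0.30 to 0.24.

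The 4 CXC ligands tested split. Cxcl10, the interferon-induced attractant of T cells, was at 76.23, 55.98 and 40.29 TPM with LPS and at 39.40, 32.76 and 39.20 TPM with LPS+Pilo (-0.58 ± 0.24), where the LPS library 3 lay only just above the LPS+Pilo libraries. Cxcl2, which attracts neutrophils, was at 15.46, 7.93 and 4.47 TPM with LPS and at 18.02, 19.72 and 18.51 TPM with LPS+Pilo (1.09 ± 0.32, or 0.70 without the third LPS library). The LPS libraries spread widely for both genes, while the LPS+Pilo libraries lay close together. Of 10 proinflammatory cytokine genes tested, 1 was apart, the cytokine subunit Ebi3, at 38.74, 38.71 and 36.79 TPM against 34.26, 33.49 and 36.26 TPM. Tnf was at 201.56, 187.57 and 181.73 TPM with LPS and at 158.62, 154.45 and 184.11 TPM with LPS+Pilo, and the groups overlapped. Il6, at 2.37 to 6.28 TPM with LPS and 3.57 to 5.38 TPM with LPS+Pilo, and Il1b, at 1.08 to 1.49 and 1.03 to 2.97 TPM, also overlapped. The granulocyte factor Csf3, at 0 in Control, was at 90.54, 49.84 and 38.27 TPM with LPS and 73.88, 80.73 and 77.34 TPM with LPS+Pilo. Csf1, the growth factor of macrophages, was at 22.94, 24.35 and 15.55 TPM against 13.62, 14.65 and 14.37 TPM (-0.50 ± 0.17). Of 11 growth factors and binding proteins, 7 differences were above 0 and the median was 0.14. Among members at 5 TPM or more in at least 3 libraries the median was 0.04. Without the third LPS library it was 0.01, with 1 apart and higher and 4 lower, against 8.77% and 35.0% of all genes. With median ratio scaling as well it was 0.14, with 4 higher and 3 lower, against 18.1% and 20.7%. In the fit of all 9 libraries the members apart were the following. Igf1 and Pdgfb, a growth factor for mural cells (-0.25), were apart and lower, and Hbegf, a ligand of the EGF receptor (0.26), was apart and higher.

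Acute-phase and secreted antimicrobial genes went in both directions. Of 5 tested, 2 were apart and higher and 2 apart and lower. Saa3, a macrophage serum amyloid, was at 229.47, 196.18 and 181.69 TPM with LPS and at 258.64, 277.26 and 272.98 TPM with LPS+Pilo (0.42 ± 0.14), and Slpi, a secreted protease inhibitor, at 128.12, 115.50 and 96.87 TPM against 139.14, 147.92 and 136.12 TPM (0.32 ± 0.12, or 0.21 without the third LPS library). Both were already far above Control with LPS alone, and the LPS+Pilo libraries lay further above. Lyz2, the macrophage lysozyme, was at 323.09, 383.91 and 306.75 TPM with LPS and at 233.11, 183.47 and 183.91 TPM with LPS+Pilo (-0.76 ± 0.15), a level inside the Control range of 165.18 to 240.88 TPM. Hp, haptoglobin, which binds free haemoglobin, was at 38.62, 33.04 and 37.24 TPM against 22.42 to 25 TPM (-0.61 ± 0.14). Lcn2, which binds bacterial iron carriers and was at no more than 0.22 TPM in Control, overlapped at 154.37 to 255.53 TPM with LPS and 226.23 to 241.68 TPM with LPS+Pilo.

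**Figure D3:**
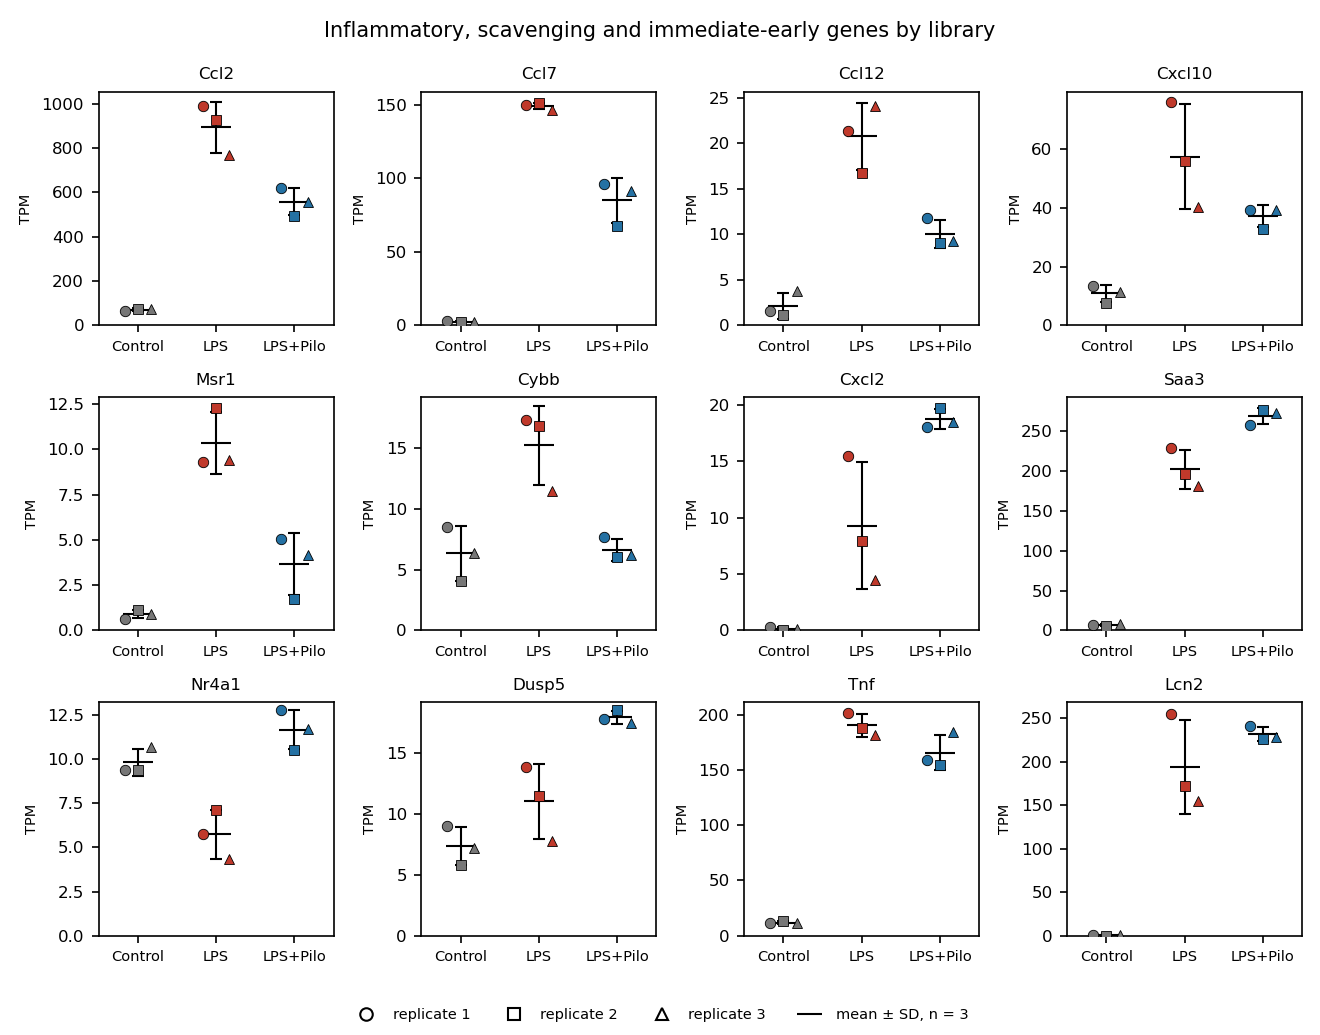
TPM (y axis, linear from 0) of 12 inflammatory, scavenging and immediate-early genes in each library, by group (x axis), with points for replicates and black bars for the mean and SD of 3 libraries. Ccl2, Ccl7, Ccl12, Msr1 and Cybb are lower in LPS+Pilo than in LPS, Cxcl2, Saa3, Nr4a1 and Dusp5 are higher, and Tnf and Lcn2 overlap.

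The enzymes that make inflammatory mediators showed no common direction: of 20 tested, 3 were apart and higher and 3 apart and lower, with a median of -0.12. Cybb, the catalytic subunit of the phagocyte NADPH oxidase, was at 17.35, 16.83 and 11.47 TPM with LPS and at 7.67, 6.06 and 6.19 TPM with LPS+Pilo (-1.07 ± 0.24), near the Control range of 4.07 to 8.53 TPM. Hmox1, which degrades haem, was also lower (-0.37 ± 0.08), at 253.47, 219.17 and 220.83 TPM against 175.75, 183.58 and 175.92 TPM. Ltc4s, the leukotriene C4 synthase, and Gch1, which starts synthesis of the cofactor that nitric oxide synthases need, were higher by 0.45 and 0.29. Nos2, the inducible nitric oxide synthase, at 4.32 to 12.91 TPM with LPS and 6.69 to 12.31 TPM with LPS+Pilo, overlapped, as did Ptgs2, the inducible cyclooxygenase, at 2.22 to 6.22 and 4.20 to 4.27 TPM. Acod1, which makes itaconate, overlapped too, at 424.78, 343.66 and 249.01 TPM with LPS and 259.83, 215.26 and 226.14 TPM with LPS+Pilo.

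Sensors and signalling genes upstream of these ligands differed little. Of 25 genes of LPS and Toll-like receptor sensing, 2 were apart and lower and none higher: Tlr13, an endosomal sensor of bacterial ribosomal RNA, at 7.44, 12.63 and 8.40 TPM with LPS and 5.74, 4.91 and 5.60 TPM with LPS+Pilo, and the adaptor Ticam1 (-0.16). Of 28 genes of NF-kB subunits, inhibitors and feedback, 2 were apart and lower. Tnfaip3, which encodes the A20 inhibitor of NF-kB signalling, was at 1.98 to 2.60 TPM with LPS and at 0.94, 0.85 and 0.63 TPM with LPS+Pilo (-0.84 ± 0.20), a range that overlaps the Control range, whose lowest library was at 0.38 TPM. The kinase Tbk1 was the other member (-0.26). None of 8 inflammasome genes was apart. With the third LPS library left out, 11 sensing genes and 15 NF-kB genes were lower, when 35.0% of all genes were, and 6 and 7 with median ratio scaling as well, when 20.7% were.

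Immediate-early genes, which are transcribed within minutes of a signal, had more members higher than lower. Of 28 tested, 4 were apart and higher and 1 apart and lower, with a median of 0.05. Nr4a1, an orphan nuclear receptor, was at 5.78, 7.11 and 4.33 TPM with LPS and at 12.76, 10.53 and 11.73 TPM with LPS+Pilo (0.93 ± 0.17, adjusted p = 0.212 by limma). LPS alone lay below the Control range of 9.38 to 10.70 TPM, and LPS+Pilo lay around and above it. Further members apart and higher were genes of MAP kinase phosphatases, none past the adjusted test: Dusp5 at 13.89, 11.53 and 7.75 TPM against 17.79, 18.55 and 17.53 TPM (0.69 ± 0.20), Dusp1 at 4.24, 3.21 and 3.67 TPM against 4.65, 5.34 and 5.59 TPM (0.40 ± 0.16), and Dusp2 at 0.28. Ier5l, a gene of the same class, was lower (-0.59 ± 0.12). Leaving out the third LPS library gave 5 members higher and 10 lower, against 8.77% and 35.0% of all genes, and with median ratio scaling as well 7 higher and 5 lower with a median of 0.05, against 18.1% and 20.7%. Without scaling and without that library, Nr4a1 was at 0.77, Dusp5 at 0.47 and Dusp1 at 0.40.

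Regulators of G protein and cyclic AMP signalling included large single differences. Of 27 tested, 2 were apart and higher and 2 apart and lower. Crem, a transcription factor whose short forms end cyclic AMP responses, was at 3.53, 2.51 and 3.13 TPM with LPS and at 5.25, 4.92 and 5.17 TPM with LPS+Pilo (0.60 ± 0.17), and Grk6, a kinase that desensitises receptors, was at 66.46, 64.42 and 68.05 TPM against 72.92, 83.42 and 84.96 TPM. Rgs2, which speeds the shut-off of Gq, was at 3.23, 5.64 and 7.82 TPM with LPS and at 2.44, 1.86 and 2.06 TPM with LPS+Pilo (-1.01 ± 0.24), and the related Rgs1 at 9.15, 9.89 and 7.57 TPM against 6.89, 3.80 and 2.2 TPM (-1.0 ± 0.31). Both were at 8.58 to 14.35 TPM in Control. Genes of muscarinic receptors and Gq-calcium signalling showed no member apart, out of 28 tested, and their median was -0.10. The muscarinic receptor genes themselves were listed at or near 0: Chrm1, Chrm2 and Chrm5 at 0 in all 9 libraries, Chrm3 at no more than 0.02 TPM and Chrm4 at 0.08 to 0.36 TPM.

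The promoters of 2 of the higher immediate-early genes and of a higher and a lower chemokine are shown because these genes differed in opposite directions within the inflammatory group (RefSeq, GRCm38.p6, chosen after the values were seen). Capitals mark the CRE half-site, searched as TGACG on both strands and held by 20.8% of the 32851 promoters, and an NF-kB site, searched by its consensus on both strands and held by 8.46%. The Nr4a1 window (chr15:101266596-101266895 (+ strand)) has 4 CRE half-sites, at -233, -213, -69 and -40, and 1 NF-kB match at -3. The Dusp1 window (chr17:26508423-26508722 (- strand)) has 3 CRE half-sites, of which those at -143 and -140 overlap in a full palindrome. The window of Dusp5, also higher, was searched but is not shown, and has 1 CRE half-site at -55. The Cxcl2 window (chr5:90903649-90903948 (+ strand)) has overlapping NF-kB matches at -97 and -96, and the Ccl12 window (chr11:82101595-82101894 (+ strand)) has no match to the 3 motifs. With so few windows no relation between motif and direction was tested.
Nr4a1: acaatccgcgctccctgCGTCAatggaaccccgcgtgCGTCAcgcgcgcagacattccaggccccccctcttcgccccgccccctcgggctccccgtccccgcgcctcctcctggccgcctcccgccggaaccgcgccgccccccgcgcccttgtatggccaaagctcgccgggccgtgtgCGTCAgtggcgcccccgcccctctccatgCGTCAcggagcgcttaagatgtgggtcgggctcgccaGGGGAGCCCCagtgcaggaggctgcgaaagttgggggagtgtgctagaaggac
Dusp1: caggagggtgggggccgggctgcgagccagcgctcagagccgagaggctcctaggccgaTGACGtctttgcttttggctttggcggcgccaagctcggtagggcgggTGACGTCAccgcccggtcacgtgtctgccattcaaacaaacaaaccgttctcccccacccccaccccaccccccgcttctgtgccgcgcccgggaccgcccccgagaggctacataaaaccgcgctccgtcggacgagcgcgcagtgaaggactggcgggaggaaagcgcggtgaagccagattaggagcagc
Cxcl2: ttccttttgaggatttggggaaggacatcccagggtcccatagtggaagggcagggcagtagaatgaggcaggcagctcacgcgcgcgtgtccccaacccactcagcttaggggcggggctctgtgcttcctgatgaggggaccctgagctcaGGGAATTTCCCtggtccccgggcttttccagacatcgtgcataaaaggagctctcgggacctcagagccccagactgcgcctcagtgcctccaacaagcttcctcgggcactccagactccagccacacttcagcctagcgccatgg
Ccl12: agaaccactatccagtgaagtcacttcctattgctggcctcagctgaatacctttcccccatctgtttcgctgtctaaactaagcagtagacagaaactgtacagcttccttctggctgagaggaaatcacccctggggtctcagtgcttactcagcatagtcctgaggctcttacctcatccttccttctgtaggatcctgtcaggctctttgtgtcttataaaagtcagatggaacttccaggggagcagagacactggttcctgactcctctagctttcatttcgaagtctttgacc

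Genes of the disease-associated microglial state, the phagocytic programme that microglia take up around damaged tissue, were lower in LPS+Pilo. Of 27 tested, 14 were apart and lower and none higher, with a median of -0.20 against -0.05 over all genes, and 24 of the 27 differences were below 0. Lpl, the lipoprotein lipase, was at 111.53, 152.75 and 99.11 TPM with LPS and at 61.51, 55.63 and 62.75 TPM with LPS+Pilo (-0.98 ± 0.19). Gpnmb, a lysosomal glycoprotein, was at 1121, 1125 and 949 TPM against 754, 662 and 747 TPM (-0.56 ± 0.11), and the lipid receptor Trem2 at 303.78, 319.82 and 374.85 TPM against 225.50, 212.58 and 280.53 TPM (-0.48 ± 0.12). For these 3 genes every Control library lay above every LPS+Pilo library, at 145.93 to 231.10, 1242 to 1527 and 589.10 to 593.02 TPM. For Gpnmb and Trem2 Control also lay above every LPS library, and for Lpl Control and LPS overlapped. Members that LPS had raised over Control were lower too: Cd52, a surface glycoprotein, at 180.52, 191.88 and 236.45 TPM against 137.62, 123.07 and 151.04 TPM, and the inhibitory receptor Lilrb4a at 57.14, 69.56 and 55.61 TPM against 51.16, 45.00 and 45.60 TPM. Others were the protease Ctsb (-0.47), the galectin Lgals3 (-0.32), the TREM2 adaptor Tyrobp (-0.28) and the protease Ctsd (-0.20). Spp1, osteopontin, overlapped at 1410 to 2079 TPM with LPS and 1174 to 1510 TPM with LPS+Pilo. Leaving out the third LPS library gave 19 members lower, where 35.0% of all genes were, and after median ratio scaling of all 9 libraries 10 were lower, where 8.05% of all genes were. With both changes 12 were lower and 2 higher, against 20.7% and 18.1%.

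The 17 tested genes of microglia and macrophage identity gave a like count, with 8 apart and lower and none higher, and the 2 lists share members such as Trem2, Tyrobp, Lyz2 and Cd68. Their summed level was 4226 to 4302 TPM with LPS, 3687 to 3810 TPM with LPS+Pilo and 4549 to 4806 TPM in Control. In bulk RNA fewer such transcripts per cell and a smaller share of cells that make them cannot be told apart. Adgre1, which encodes the macrophage antigen F4/80, was at 35.31, 33.31 and 20.33 TPM with LPS and at 18.91, 13.35 and 16.99 TPM with LPS+Pilo (-0.79 ± 0.25). Csf1r, the receptor for CSF1, was at 50.18, 49.30 and 43.57 TPM against 34.20, 38.77 and 36.70 TPM (-0.37 ± 0.11). Of 17 genes of homeostatic microglia, 6 were apart and lower and 1 higher. Cx3cr1, the fractalkine receptor, was at 2.63, 3.22 and 2.88 TPM with LPS and at 1.2, 1.15 and 1.04 TPM with LPS+Pilo (-0.87 ± 0.18). Runx1, a transcription factor, was higher (0.42), at 10.25, 10.25 and 7.42 TPM against 10.33, 14.66 and 13.34 TPM. Tmem119, a marker of resident microglia, did not separate, at 2.72 to 3.05 TPM with LPS and 2.97 to 3.05 TPM with LPS+Pilo.

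**Figure D4:**
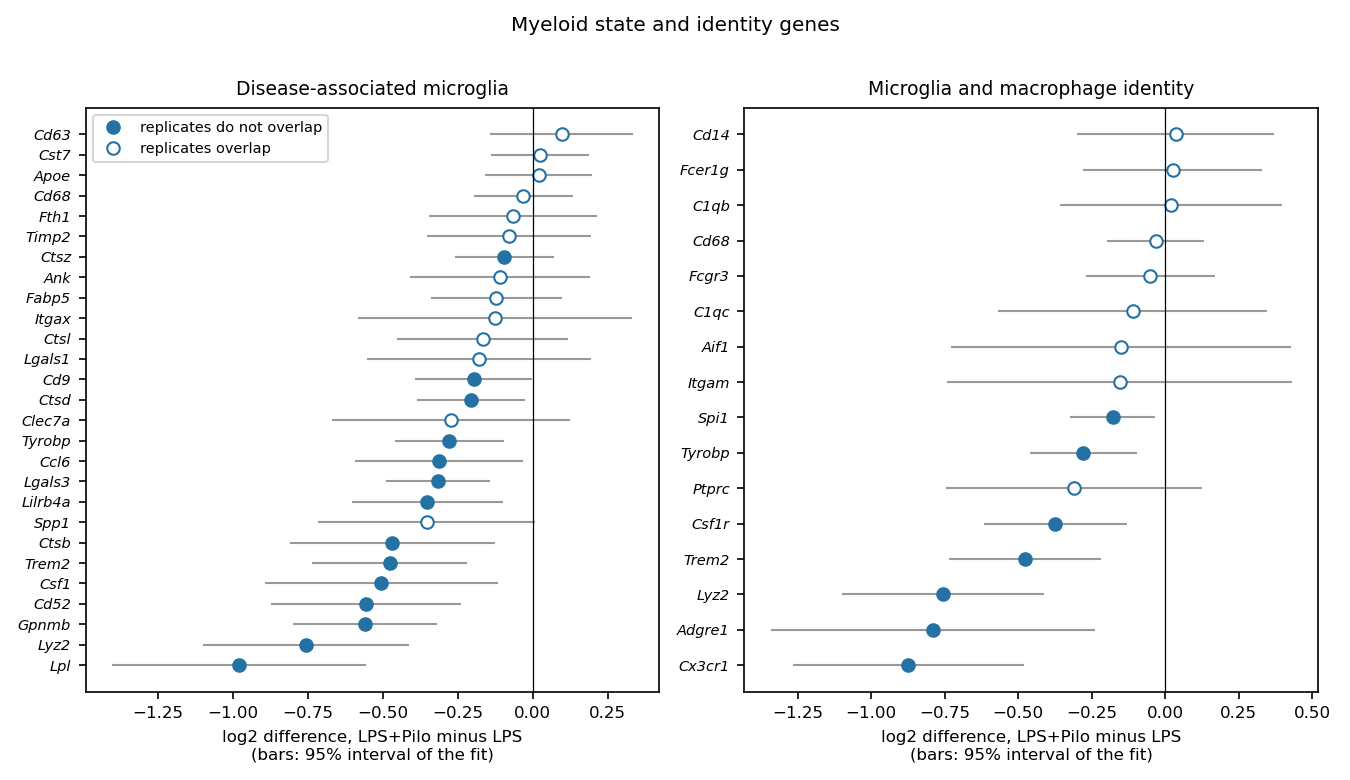
Log2 difference of LPS+Pilo minus LPS on the log2(TPM + 1) scale (x axis) with its 95% interval for the 27 disease-associated (left) and the identity genes (right, 1 of the 17 not drawn), with filled points where replicates do not overlap. In both lists every filled point lies below 0, and the lowest are Lpl at -0.98 and Cx3cr1 at -0.87.

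Among receptors for uptake, scavenger receptors and lectins followed the same direction, and complement and opsonic receptors did not do so as a group. Of 18 scavenger receptors and lectins, 6 were apart and lower and none higher, with a median of -0.26. Msr1, the class A scavenger receptor, was at 9.30, 12.30 and 9.43 TPM with LPS and at 5.07, 1.74 and 4.18 TPM with LPS+Pilo (-1.35 ± 0.28), and Control was at 0.64 to 1.10 TPM. The lectin receptors Clec5a (-0.66) and Clec4d (-0.34) were further members. Of 14 complement and opsonic receptors 2 were apart, both lower. Their median was -0.07, next to -0.05 over all genes, with 6 differences above 0 and 8 below. After median ratio scaling 2 were apart and higher and 2 apart and lower. C3ar1, the receptor for the anaphylatoxin C3a, was at 19.07, 18.43 and 13.99 TPM against 10.69, 9.06 and 10.79 TPM (-0.69 ± 0.17), and Fcgr1, the high-affinity IgG receptor, at 55.65, 49.36 and 41.60 TPM against 30.99, 31.05 and 31.62 TPM (-0.62 ± 0.16). Among 25 genes of integrins, adhesion and migration, 6 were lower and 3 higher. Gpr183, an oxysterol receptor that guides migration, was at 2.78, 3.08 and 2.79 TPM with LPS and 0.92 to 1.77 TPM with LPS+Pilo, while the chemokine receptor Cxcr4 was at 1.54, 0.93 and 1.18 TPM against 2.09, 2.78 and 1.93 TPM. Both receptors were far higher in Control, at 11.55 to 12.59 and 6.21 to 9.44 TPM. Of 10 purinergic receptors and ectonucleotidases, 1 was apart: P2ry6, a receptor that triggers phagocytosis, which was lower (-0.33). That group had no common direction, with 5 differences above 0, 5 below and a median of 0.0003. Of 19 extracellular proteolysis and matrix genes, the group that holds Plau, 2 were apart and higher and 1 lower, with a median of -0.08. The gelatinase Mmp9 was higher, at 0.94, 0.48 and 0.79 TPM against 1.21, 1.77 and 1.15 TPM. It reached 1 TPM in the LPS+Pilo libraries only, so it was tested only because it was high there, and its separation is no support.

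Lysosomal, iron and lipid genes were mixed. Of 49 lysosome and autophagy genes, 8 were apart and lower and 1 higher, with a median of -0.08. Besides Ctsb, the lysosomal regulator Tfeb was lower, at 12.84, 11.51 and 12.12 TPM against 9.62, 8.26 and 9.90 TPM, and the autophagosome protein Map1lc3a was higher, at 33.65, 31.67 and 28.82 TPM against 38.34, 43.54 and 42.27 TPM. Of 16 iron genes, 4 were lower and none higher, among them the ferritinophagy receptor Ncoa4 (-0.37) and the light chain of ferritin, Ftl1, a gene with many processed copies, at 31498, 29448 and 31541 TPM with LPS and 24671, 28509 and 27998 TPM with LPS+Pilo. Of 24 genes of lipid uptake, storage and efflux, 5 were higher and 3 lower. Dgat2, which makes triglyceride, was higher at 18.68, 17.83 and 13.85 TPM against 22.65, 20.77 and 25.63 TPM (0.44 ± 0.14), as was Cyp27a1, a sterol hydroxylase (0.40), while the fatty acid carrier Fabp4 was lower (-0.38). Of 35 genes of cholesterol and fatty acid synthesis 2 were lower, including the sterol sensor Insig1 (-0.50), and none higher. Of 23 NRF2 antioxidant genes 3 were lower, among them Srxn1 (-0.27), and 1, Osgin1, was higher (0.38).

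Interferon-stimulated genes were lower by a small amount, and how many were apart varied with the scaling and the third LPS library. Of 38 tested, 4 were apart and lower, when 6.63% of all genes were, and none higher. After median ratio scaling 11 were apart and lower, when 8.05% of all genes were, and after quantile normalization 8 were. The median was -0.26 and 29 of the 38 differences were below 0. Without the third LPS library 29 were apart and lower, against 35.0% of all genes, and the median was -0.42, against -0.13 over all genes. With scaling as well, 24 were lower, against 20.7%. Ifi211, a DNA-binding member of the Ifi200 family, was at 6.94, 5.98 and 6.32 TPM with LPS and at 3.44, 2.14 and 3.57 TPM with LPS+Pilo (-0.89 ± 0.26). Its relatives in this family have near-identical copies, so its reads may be shared. Ifit3, which restrains viral RNA, was at 4.25, 4.29 and 2.71 TPM against 2.04, 1.51 and 2.39 TPM (-0.66 ± 0.21). Isg15, a ubiquitin-like protein, at 195.52, 158.32 and 137.90 TPM against 138.44, 107.04 and 140.95 TPM, and the antiviral enzyme Rsad2, at 27.64, 23.46 and 10.62 TPM against 17.66, 13.09 and 15.52 TPM, overlapped through the third LPS library in the same way. Genes of MHC class I presentation did not share this direction, with 2 of 18 apart and higher, H2-T23 (0.33) and H2-D1 (0.18), and 1 lower. Of 12 genes of MHC class II and costimulation, H2-Oa was higher (0.41) and 2 were lower.

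Genes of protein folding in the endoplasmic reticulum and genes downstream of the stress factor ATF4 differed in direction. Of 28 chaperones and unfolded protein response genes, 8 were apart and lower and none higher, and the median was -0.27. Hspa5, the chaperone BiP, was at 186.00, 199.86 and 144.22 TPM with LPS and at 139.73, 134.16 and 122.12 TPM with LPS+Pilo (-0.41 ± 0.15), and Calr, calreticulin, at 665.77, 620.76 and 568.84 TPM against 490.70, 469.43 and 489.14 TPM (-0.35 ± 0.08). Dnajc3 (-0.44), Selenos (-0.32), Pdia6 (-0.31), Dnajb11 (-0.31), Creld2 (-0.30) and Derl2 (-0.25), all of which fold or clear proteins of this compartment, made up the 8. Of 32 ATF4 pathway genes, 6 were apart and higher and none lower, and the median was 0.17. Psph, which completes serine synthesis, was at 72.16, 59.99 and 51.06 TPM with LPS and at 87.91, 91.34 and 81.26 TPM with LPS+Pilo (0.51 ± 0.13), and the transcription factor Cebpb at 179.81, 168.29 and 107.15 TPM against 210.06, 271.46 and 193.04 TPM (0.58 ± 0.21, or 0.35 without the third LPS library). Ddit3, the transcription factor CHOP, and Ppp1r15a, which reverses translational arrest, were higher by 0.31 and 0.29, the latter by 0.16 without the third LPS library. The chaperone count was 22 lower without the third LPS library, whereas the ATF4 count became 6 higher and 6 lower with a median of 0.01. With median ratio scaling as well, 19 chaperone genes were lower and 1 higher, and 11 ATF4 genes were higher and 2 lower with a median of 0.13, against 20.7% lower and 18.1% higher over all genes.

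Of 21 small and other heat shock genes, 3 were apart and lower: Hspb7, the constitutive chaperone Hspa8, at 1871, 2012 and 1801 TPM against 1621, 1356 and 1294 TPM (-0.42 ± 0.12), and Dnajb4 (-0.18). In the group of p53 targets, growth arrest and apoptosis, 5 of 32 were lower and 2 higher, when 6.63% and 5.58% of all genes were. Both higher members, Bcl2l11 (0.59) and Bbc3 (0.51), encode proteins that promote apoptosis, and they were at 0.29 and 0.34 without the third LPS library. Bcl2l11 was at 22.01, 17.39 and 10.01 TPM with LPS and at 23.54, 24.99 and 23.71 TPM with LPS+Pilo. Among the lower members, Bcl2a1d (-0.63), Bcl2a1b (-0.58) and Mcl1 (-0.40) encode proteins that restrain apoptosis, and Gadd45b (-0.54) and Gadd45g (-0.36) encode stress sensors. Bcl2a1b was at 51.52, 43.35 and 47.68 TPM against 35.88, 26.91 and 31.82 TPM. The Bcl2a1 genes are near-identical copies, and how their reads were divided is not known. Of 54 genes of DNA replication and mitosis 3 were lower, among them the replication factor Gins2 (-0.26), and 1, Cdc20, was higher (0.10).

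Metabolic and housekeeping groups held small differences. No member of 36 glycolysis and hypoxia genes was apart, and their median was -0.04, next to -0.05 over all genes. Of 27 TCA cycle genes 2 were apart and higher, Slc25a1 (0.16) and Idh2 (0.15). Of 51 nuclear-encoded respiratory chain genes, 5 were higher and 2 lower, with Cox8a at 0.29, Cox6a1 at 0.25 and Ndufv2 at -0.30. These counts varied: none was apart after median ratio scaling, 10 were higher and 4 lower without the third LPS library, and 25 were higher and none lower with both. Of 68 cytosolic ribosomal proteins, 5 were higher and 1 lower, with a median of 0.06, and the range of all 68 was -0.29 to 0.29. Median ratio scaling gave 1 ribosomal gene higher and none lower, and quantile normalization 3 higher and 5 lower. Leaving out the third LPS library gave 28 higher and 2 lower, against 8.77% and 35.0% of all genes, and with median ratio scaling as well 40 higher and none lower, against 18.1% and 20.7%. Of the genes often used to normalise, Gapdh was at 12167 to 13520 TPM with LPS and 11930 to 12481 TPM with LPS+Pilo, and Actb was at 4932, 4247 and 3956 TPM against 3618, 3238 and 3409 TPM (-0.35 ± 0.13).

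The remaining counts without the third LPS library follow, to be read against 8.77% higher and 35.0% lower over all genes, and with median ratio scaling as well against 18.1% and 20.7%. Of 17 identity genes, 10 were lower and none higher without that library, and 8 and 1 with scaling as well. Homeostatic genes (17) had 9 lower and 2 higher, and 6 and 4 with scaling. Scavenger receptors (18) had 10 lower and 1 higher, and 9 and 3 with scaling, and complement and opsonic receptors (14) had 6 lower and none higher, and 5 and 3. Heat shock genes (21) had 13 lower and none higher, and 9 and 1 with scaling. In each of these groups the share that were lower stood above the share of all genes in both settings. The same held for several groups listed next, among them the lysosomal, integrin and cholesterol synthesis genes.

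Further groups were as follows. Lysosomal genes (49) had 31 lower and 1 higher without the third LPS library, and 17 and 8 with scaling as well. Muscarinic and Gq-calcium genes (28) had 16 lower and none higher, and 7 and 2 with scaling, and G protein regulators (27) had 12 and 2, and 5 and 3. Lipid uptake genes (24) had 11 lower and 5 higher, and 9 and 6 with scaling, cholesterol and fatty acid synthesis genes (35) had 17 and 1, and 14 and 4, and iron genes (16) had 9 and none, and 4 and 1. Integrin and adhesion genes (25) had 16 lower and 3 higher, and 9 and 6 with scaling. NRF2 genes (23) had 11 and 1, and 7 and 3, and inflammatory enzymes (20) had 8 and 3, and 4 and 4. Glycolysis genes (36) had 10 lower and none higher, and 6 and 5 with scaling, TCA cycle genes (27) had 9 and 2, and 5 and 5, and replication and mitosis genes (54) had 19 and 2, and 13 and 9. MHC class I genes (18) had 7 lower and 2 higher, and 3 and 5 with scaling. The apoptosis group (32) had 9 and 4, and 8 and 6. MHC class II and costimulation genes (12) had 3 lower and 1 higher, and 2 and 4 with scaling. Extracellular proteolysis and matrix genes (19) had 9 and 2, and 5 and 4. The CC and CX3C chemokines (9) had 4 lower and 2 higher, and 3 and 2 with scaling. The acute-phase genes (5) had 2 each way in both settings, and CXC chemokines (4) and purinergic genes (10) had 1 each way in both. Proinflammatory cytokines (10) had 3 lower and none higher, and none either way with scaling. Colony-stimulating factors and receptors (8) had 6 lower and none higher, and 3 and none with scaling. Inflammasome genes (8) had 3 lower and none higher, and 1 each way with scaling.

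**Figure D5:**
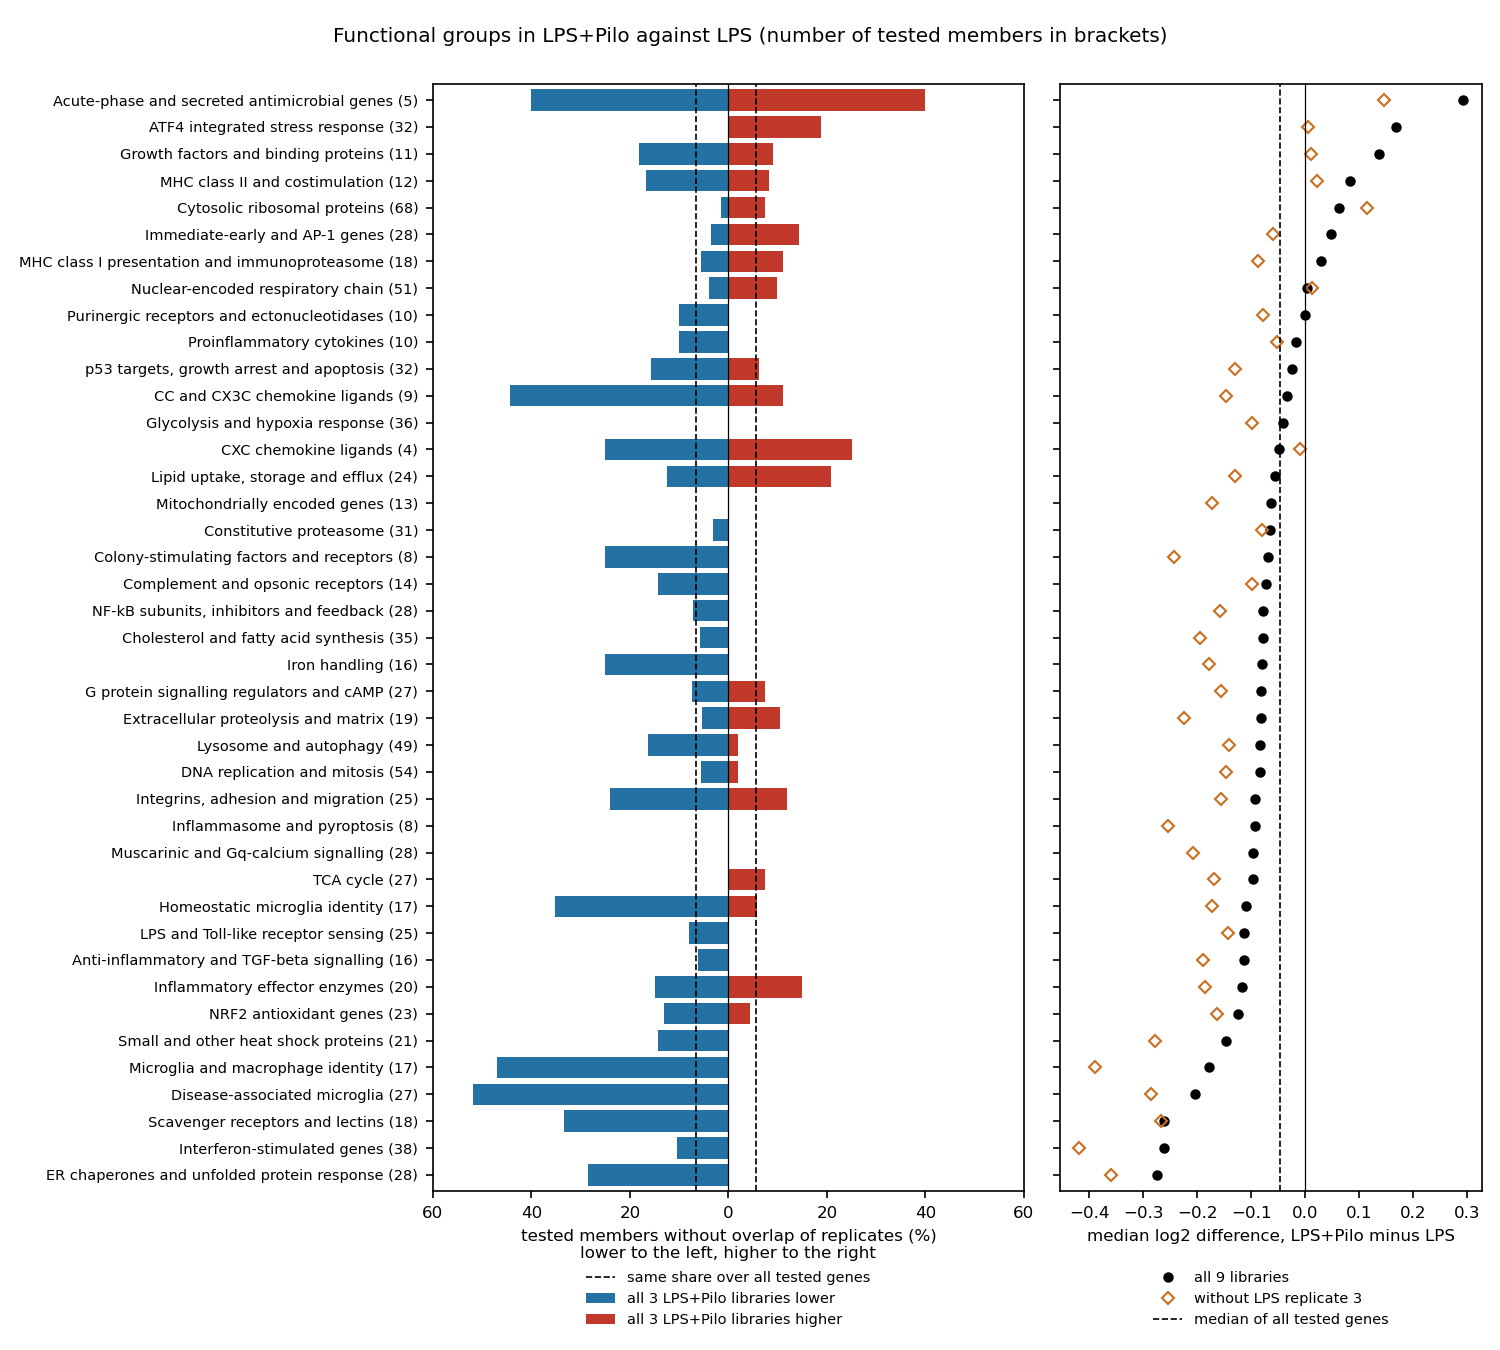
Left, percent of the tested members of each gene group whose LPS+Pilo replicates all lay below (blue, to the left) or above (red, to the right) the LPS replicates, with dashed lines at the shares of all genes, 6.63% lower and 5.58% higher. Right, the median log2 difference of each group with all libraries (black) and without the third LPS library (orange). Disease-associated, identity, scavenger and ER chaperone genes are among the groups with lower members and none higher.

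Outside these groups, the genes with the largest gaps were a mixed set. Fxyd2, a small regulator of the sodium pump, was at 1.72, 1.06 and 2.38 TPM with LPS and at 4.46, 14.97 and 5.36 TPM with LPS+Pilo (1.62 ± 0.37), with the second LPS+Pilo library far above the others. Aqp8, a channel for water and hydrogen peroxide, was at 6.16, 7.09 and 5.84 TPM against 12.77, 16.10 and 12.98 TPM (1.02 ± 0.19), and Control was at 2.91 TPM or less. Tmem158, a membrane protein gene, was at 26.90, 26.91 and 21.10 TPM with LPS and at 37.59, 44.23 and 36.56 TPM with LPS+Pilo (0.64 ± 0.12), next to 44.29 to 49.98 TPM in Control. Tmtc2, an enzyme of O-mannosylation, was at 98.84, 108.49 and 98.34 TPM against 204.10, 181.99 and 190.98 TPM (0.91 ± 0.14). Its adjusted p was 0.165 by limma, but 0.0332 when only the 6 treated libraries were fitted. The Control libraries varied from 129.68 to 201.75 TPM for this gene. Further genes higher and apart were Cox6a2 (0.87), S100a3 (0.81), Acoxl (0.79), Sspn (0.71, or 0.45 without the third LPS library), Adipor2 (0.67), Camk1d (0.67), Cmss1 (0.67) and Il12rb1 (0.66). Adipor2 ranged from 82.31 to 269.43 TPM among the Control libraries, more than the gap between the treated groups.

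On the lower side, Rpph1, the RNA of ribonuclease P, was at 72.83, 123.34 and 167.42 TPM with LPS and at 31.53, 69.78 and 53.80 TPM with LPS+Pilo (-1.21 ± 0.33). Bola3, which helps to assemble iron-sulphur clusters, was at 56.85, 25.18 and 43.50 TPM against 22.60, 21.08 and 16.14 TPM (-0.97 ± 0.25). For 2 genes the difference came from 1 library: Atp6v0a2, a subunit of the vacuolar proton pump, was at 7.57, 7.15 and 28.99 TPM with LPS and at 5.55 to 6.15 TPM with LPS+Pilo, and Dync1li2, a dynein light intermediate chain, at 14.95, 11.74 and 38.77 TPM against 10.15 to 11.50 TPM. Leaving that library out put them at -0.30 and -0.29. The cytokine gene Il10 and the alternative-activation enzyme Arg1 were under the 1 TPM limit, at no more than 0.04 and 0.30 TPM in any library.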

How the data were processed

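Total RNA from 9 BV2 libraries was extracted with TRIzol and made into libraries with a TruSeq RNA kit, per the labels' protocols. The authors deposited 1 table of TPM, scaled to the same total in each library and rounded to 2 decimals. The submitters' processing notes name fastp 0.19.5, STAR 2.7.1a, DESeq2 1.24.0 and the GRCm39 build. The program that computed TPM is not given in the sources used here. TPM keep no read depth, so depth is unknown, and counts were not modelled.

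Genes at 1 TPM or more in at least 3 libraries were kept, and log2(TPM + 1) was fitted with limma 3.58.1 in R 4.3.3, with 1 mean for each of the 3 groups, a variance trend and Benjamini-Hochberg adjustment over 11260 genes. An exact permutation test of 3 against 3 libraries cannot give a p below 0.1, so none was used. On data simulated for this comparison over 11260 genes the fit found 30%, 78%, 96% and 100% of changes of 0.5, 1, 2 and 4 on the log2 scale. There were 10 false calls. For each size 50 genes were changed, all at a mean of 5 TPM or more. Noise was drawn independently for each library, so no simulated library stood apart as the third LPS library did. The shares found therefore do not give the power of the real comparison.

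The 46 gene lists and the rule for naming genes were chosen with earlier results of these data known. Named were genes past the adjusted test, the 15 largest differences each way among genes apart and at a mean of 5 TPM or more, up to 4 genes per list and a set of inflammatory and control genes. Tyrobp, Lgals3, Ctsd, Ccl6, Isg15, Rsad2, Pdia6, Dnajb11, Creld2, Derl2, Bbc3, Mcl1, Gadd45g and Dusp2 were named after their values were seen, as were the marker genes of cell types. Promoters came from RefSeq (GRCm38.p6). Of the named genes, Plau had no entry. Alternatives were pseudocounts of 0.1 and 0.5, other filters, quantile and median ratio scaling, fits without the Control libraries, without the variance trend or with a replicate block, and leaving out each library. Some genes that the rule picks are counted in their lists and are not reported here. Figures were drawn with matplotlib 3.10.9.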

Additional observations from a re-analysis of the deposited data

How the results depend on the processing

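Of 154 named genes tested, 147 kept the direction of their difference in all 20 alternatives. Most of these genes were picked because their replicates did not overlap in these same libraries. For such a gene, leaving out a library or changing the pseudocount cannot reverse the direction, and only the rescaled settings could. The count was thus largely fixed by the choice of genes and is no measure of stability. The number of genes past the adjusted test, 5, was 1 with no filter on low values, 1 with quantile normalization, 2 with median ratio scaling, 3 when only LPS and LPS+Pilo libraries were fitted, 3 with no variance trend, and 0 to 6 when 1 library was left out. Median ratio scaling or quantile normalization without the third LPS library, 2 alternatives chosen after seeing the data, gave 0 calls by limma, with 1283 and 1277 genes at an unadjusted p under 0.05. The 1374 genes without overlap ranged from 1367 to 4909, the 628 higher from 628 to 1190 and the 746 lower from 739 to 3926 when 1 library was left out. Part of such a rise follows from comparing 2 libraries against 3, where fewer orders can overlap. Without the third LPS library they were 4348, 2026 and 2322 after median ratio scaling and 4085, 1817 and 2268 after quantile normalization.

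The direction of small differences reversed in 7 genes, none of them past the test, and the cause was not tested. Ccl3 was at 0.012 after median ratio scaling, 0.0957 after that scaling without the third LPS library, and -0.1223 to 0.0581 with 1 library left out. Without the third LPS library and with median ratio scaling Gapdh was at 0.0507 and Ube2c at 0.036. Il6 was at -0.2054 and -0.1362 without the third LPS library after median ratio scaling and quantile normalization, and at -0.3157 to 0.2399 with 1 library left out. Ptgs2 was at 0.0013 with a pseudocount of 0.1, 0.0495 after quantile normalization, 0.0244 after median ratio scaling and -0.3822 to 0.2002 with 1 library left out. Il1b ranged from -0.0871 to 0.3967 and Tmem119 from -0.018 to 0.0433 with 1 library left out. Of 41 list medians, 27 moved by more than their spread between libraries without the third LPS library.

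With the replicate number as a block, 1 gene (ENSMUSG00000119895) passed the test, the gene that was tested only because it was high with LPS. Same-numbered LPS and LPS+Pilo libraries had correlations of their deviations from the group means of -0.03, -0.06 and 0.06, and not every library correlated best with its own number. The labels do not state whether same-numbered libraries share a culture or a batch, and these correlations cannot decide it. No pairing was used in the main fit.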
